A study of Mus musculus with 6 samples.

Results

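Autophagy initiation and cargo genes, 10 of the 34745 rows of a deposited gene table, found by gene name, were followed in 3 libraries labelled Sox9HKO (HKO) and 3 labelled Sox9f/f (WT), all of mouse liver RNA. They are the initiation genes Ulk1, Becn1 and Wipi1, the ATG8 family genes Map1lc3a, Map1lc3b, Gabarap, Gabarapl1 and Gabarapl2, and the cargo receptor genes Sqstm1 and Bnip3. Every library came from C57BL/6 mice 12 weeks old, sampled 48 h after partial hepatectomy (PHx), the removal of part of the liver, after which the remaining tissue regrows. Both groups thus carry the operation, WT mice carry Sox9 alleles flanked by recombination sites, and no unoperated group was analysed here. The tissue is labelled liver and the cell type hepatocyte. The sources used here give neither the driver of the Sox9 deletion nor the number of mice behind the libraries. The p-values below therefore measure spread among libraries only, which may be technical.

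Autophagy delivers cytoplasm and organelles to the lysosome. The ULK1 kinase complex starts it, the Beclin 1 complex makes the lipid phosphatidylinositol 3-phosphate on the forming membrane, and WIPI proteins bind that lipid. Proteins of the ATG8 family are then joined to the membrane lipid phosphatidylethanolamine, and cargo receptors such as p62 (Sqstm1) and BNIP3 tie ubiquitinated proteins or mitochondria to them. In liver this route supplies amino acids and fatty acids in fasting and clears damaged mitochondria.

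In HKO, 5 of the 10 genes rose and none fell by edgeR's quasi-likelihood test at an adjusted p below 0.05. Bnip3, a receptor on the outer mitochondrial membrane, was 4.59-fold higher, Map1lc3a 2.18-fold, Gabarapl1 1.81-fold, Ulk1 1.43-fold and Sqstm1 1.32-fold. The log2 fold changes of Gabarap, Gabarapl2, Map1lc3b, Becn1 and Wipi1 lay between 0.02 and 0.71 and did not pass. Over all 12556 genes tested, 12.1% were called higher and 11.2% lower in HKO, or 23.2% in all. All 10 genes passed the filter on low counts. All 10 fitted log2 fold changes were above 0, beside 6484 of the 12556 genes tested. It follows that no member was lower in HKO at an unadjusted p below 0.05, and DESeq2 and limma-voom also called none lower. The sign turned for Wipi1 in 3 of the 13 alternative fits given below, and for Becn1 and Map1lc3b in 1 each. The median log2 fold change of the 10 genes was 0.46, beside 0.02 over all genes tested. For 6 of the 10 every HKO library lay above every WT library, where 44.2% of all genes tested had groups that did not overlap in either direction. The 10 genes were chosen with earlier results of these data known, so these counts and medians only describe them. The count of 5 fell to 3 when HKO 1, HKO 3 or WT 3 was left out. Higher calls over all genes fell in the same fits, from 1516 to 1100, 969 and 722.

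**Figure D1:**
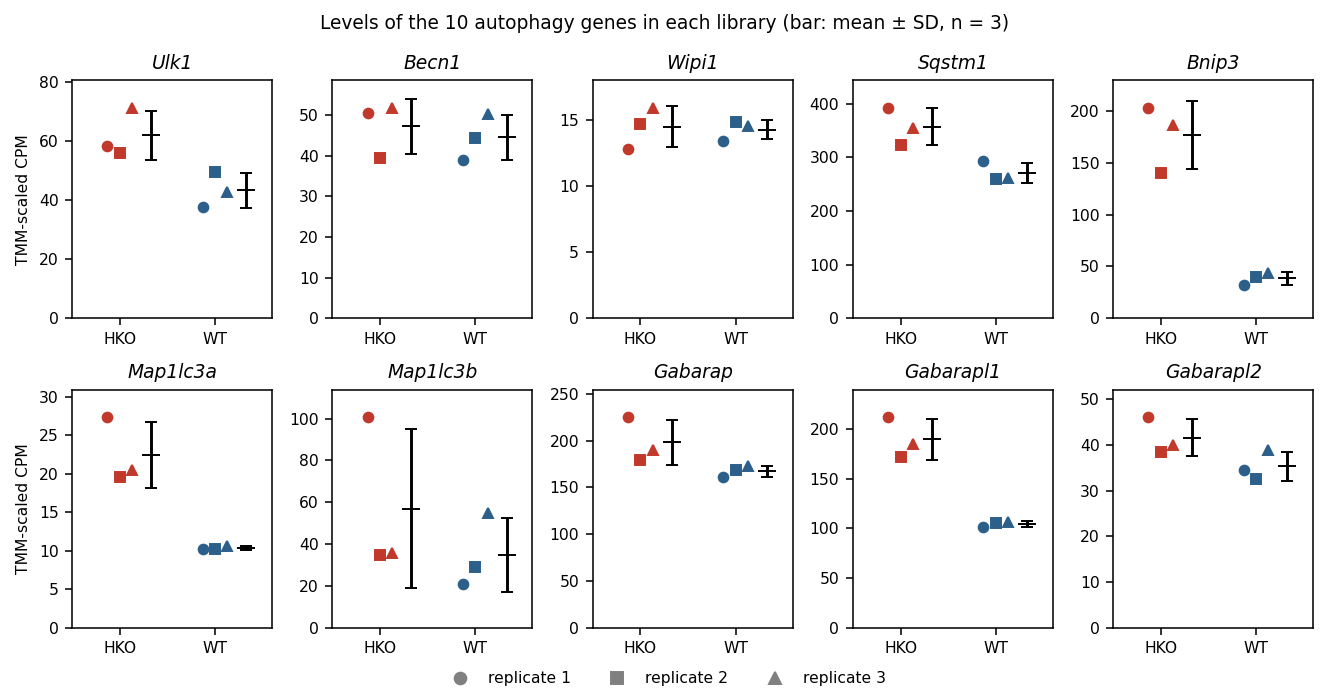
Level of each gene (y axis, TMM-scaled CPM, linear from 0) in the 3 HKO and the 3 WT libraries (x axis). Points are libraries, with the symbol giving the replicate number, and bars are mean ± SD. Bnip3 stands at 139.9 to 203 CPM in HKO, against 31.7 to 44.0 CPM in WT, and Map1lc3b has the highest coefficient of variation of the 10 genes, 66.6% in HKO and 50.8% in WT.

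The libraries held 16659778 to 21168233 counts, and levels are counts as a share of the library total (CPM), scaled between libraries by the trimmed mean of M-values (TMM). Sox9 itself averaged 5.14 ± 1.06 CPM in HKO, against 10.7 ± 3.41 CPM in WT, with a log2 fold change of -1.05 (edgeR adjusted p = 0.0284). WT 1, at 6.94 CPM, lay only just above HKO 1 at 6.34 CPM, while WT 2 and WT 3 held 13.65 and 11.35 CPM. Summed hepatocyte markers lay at 71800 to 73400 CPM in HKO and 75200 to 94500 CPM in WT, with 2 of 7 called higher and the other 5 not called. Biliary markers summed to 23.8 to 45.8 CPM in HKO and 54.3 to 158 CPM in WT, with 2 of 2 tested called lower. Erythroid markers summed to 62.0 to 73.9 CPM in HKO and 53.0 to 61.2 CPM in WT, with 2 of 3 tested called higher. HKO 2 stood apart: the 13 genes of mitochondrial DNA took 25.9% of the counts, against 12.1% to 16.3% in the other 5 libraries, and its summed markers of stellate cells and fibroblasts reached 523 CPM, against 80.8 to 137 CPM elsewhere, with 2 of 8 called higher in HKO. Kupffer cell and macrophage markers summed to 234 to 365 CPM in HKO and 160 to 171 CPM in WT, with 8 of 8 called higher. Endothelial markers summed to 124 to 357 CPM in HKO and 73.5 to 116 CPM in WT, with 1 of 7 called higher. Markers of B and plasma cells summed to at most 27.2 CPM in HKO and 2.30 CPM in WT, with 3 of 3 tested called higher. Those of neutrophils summed to at most 4.30 CPM in HKO and 0.674 CPM in WT, with the 1 tested called higher and Ly6g at 0. Those of T and NK cells summed to at most 0.756 CPM in HKO and 0.61 CPM in WT, with Cd8a at 0 and every gene too low to test. The 10 genes are active in most cell types, and the part of these other cells in the results below was not tested. In such bulk samples fewer cells of a type and less RNA per cell cannot be told apart.

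Of the initiation genes, Ulk1 rose while Becn1 and Wipi1 did not pass the test. Ulk1 (ENSMUSG00000029512, GRCm38 chromosome 5, 110784488 to 110810097, minus strand), which encodes the kinase that starts autophagosome formation, stood at 58.5, 56.2 and 71.5 CPM in HKO 1, 2 and 3, against 37.8, 49.6 and 43.0 CPM in WT 1, 2 and 3. The groups did not overlap, with HKO 3 highest and WT 2 closest to the HKO values. The log2 fold change was 0.51 (SE 0.14, edgeR adjusted p = 0.0322), and the call was lost without HKO 1, HKO 3, WT 1 or WT 3 (edgeR adjusted p = 0.0633, 0.0953, 0.0878 and 0.111).

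Becn1 (ENSMUSG00000035086, chromosome 11, 101285952 to 101302286, minus strand), which encodes the Beclin 1 scaffold of the lipid kinase complex, had 50.4, 39.4 and 51.8 CPM in HKO, against 38.9, 44.4 and 50.2 CPM in WT. The groups overlapped across nearly their whole range, with a log2 fold change of 0.09 (SE 0.14, edgeR adjusted p = 0.697). Wipi1 (ENSMUSG00000041895, chromosome 11, 109573331 to 109611967, minus strand), whose protein binds the new lipid, had 12.8, 14.7 and 16.0 CPM in HKO, against 13.4, 14.8 and 14.6 CPM in WT. Its lowest and its highest value were both HKO libraries, and its log2 fold change was 0.02 (SE 0.12, edgeR adjusted p = 0.913).

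The ATG8 family split by member. Map1lc3a and Gabarapl1 rose, while Gabarap, Gabarapl2 and Map1lc3b did not pass. Map1lc3a (ENSMUSG00000027602, chromosome 2, 155276297 to 155278073, plus strand), which encodes LC3A, stood at 27.4, 19.5 and 20.5 CPM in HKO, against 10.2, 10.2 and 10.6 CPM in WT. The WT libraries were tight, with a coefficient of variation of 2.52%, and every HKO library lay well above them, HKO 1 most. Its log2 fold change was 1.12 (SE 0.15, edgeR adjusted p = 0.00238). Gabarapl1 (ENSMUSG00000030161, chromosome 6, 129533160 to 129542346, plus strand), whose protein serves the later steps of autophagosome growth and closure, stood at 212, 172 and 185 CPM in HKO, against 101, 106 and 107 CPM in WT. Here too the WT values were tight, with a coefficient of variation of 2.71%, and the groups lay far apart. Its log2 fold change was 0.86 (SE 0.10, edgeR adjusted p = 0.00147). Both calls held in all 13 alternatives run, with log2 fold changes of 0.94 to 1.21 for Map1lc3a and 0.75 to 0.93 for Gabarapl1.

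Gabarap (ENSMUSG00000018567, chromosome 11, 69991143 to 69994951, plus strand), the founding member of its subfamily, had 225, 179 and 189.8 CPM in HKO, against 161, 168 and 172 CPM in WT. All HKO values lay above all WT values, HKO 2 only just, and the log2 fold change of 0.24 (SE 0.11) did not pass (edgeR adjusted p = 0.139). Gabarapl2 (ENSMUSG00000031950, chromosome 8, 111940703 to 111953612, plus strand), also called GATE-16, had 46.1, 38.4 and 40.01 CPM in HKO, against 34.4, 32.6 and 38.9 CPM in WT. WT 3 lay above HKO 2, and the log2 fold change was 0.23 (SE 0.11, edgeR adjusted p = 0.174).

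Map1lc3b (ENSMUSG00000031812, chromosome 8, 121590361 to 121598760, plus strand) encodes LC3B, the protein most used to count autophagosomes. HKO 1, 2 and 3 held 101, 34.7 and 35.5 CPM, against 20.9, 28.9 and 54.7 CPM in WT 1, 2 and 3. One library in each group stood high, HKO 1 and WT 3, and WT 3 exceeded both other HKO libraries. The coefficient of variation was 66.6% in HKO and 50.8% in WT, whereas it lay at or under 19.1% in HKO and 16.3% in WT for the other 9 genes. The log2 fold change was 0.71 (SE 0.49, edgeR adjusted p = 0.321), and without HKO 1 it was -0.01. Without WT 3 it was 1.19 (edgeR adjusted p = 0.174).

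**Figure D2:**
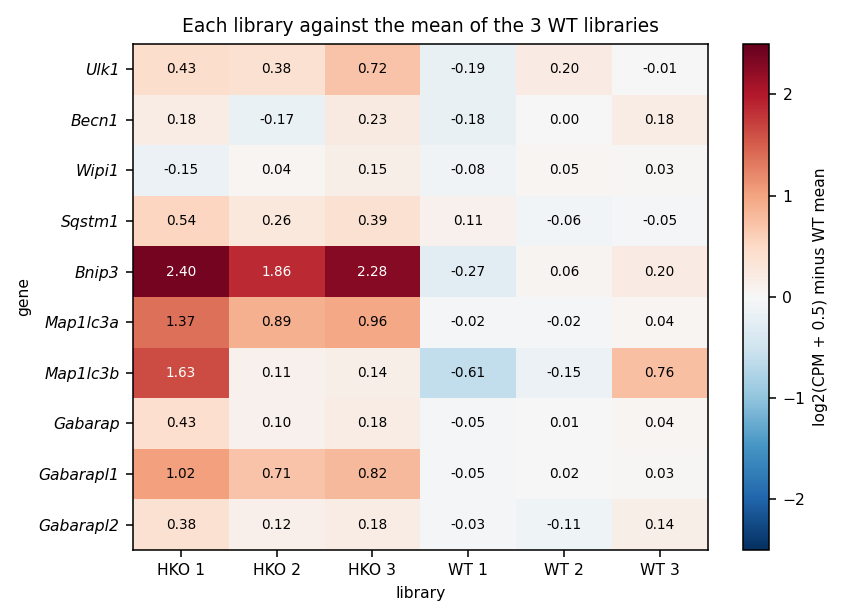
Level of each gene (rows) in each library (columns) as log2(CPM + 0.5) minus the mean of the 3 WT libraries, in colour and as printed values. Bnip3 lies at 2.40, 1.86 and 2.28 in HKO 1, 2 and 3, and Map1lc3b lies at 1.63 in HKO 1 and 0.76 in WT 3.

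Within HKO, the libraries ranked alike for most of the genes. HKO 2 was the lowest HKO library in 9 of the 10, and HKO 1 was the highest of all 6 libraries in 7, HKO 3 in the remaining 3. Such ranks were not counted over all genes tested, so they cannot be called particular to these genes. The median of the 10 genes relative to the WT mean was 0.48, 0.19 and 0.31 on the log2 scale in HKO 1, 2 and 3, while over all genes tested these medians lay between -0.003 and 0.02. HKO 2 is the library with the high mitochondrial share and the high stellate and endothelial markers, while its Kupffer cell and erythroid markers were the lowest of the HKO libraries. The part of these in its lower values was not tested. Without HKO 2, 5 of the 10 genes were called higher, beside 1589 of all genes tested.

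Both cargo receptor genes rose, Sqstm1 with the smallest and Bnip3 with the largest fold change of the 5 called. Sqstm1 (ENSMUSG00000015837, chromosome 11, 50199366 to 50210827, minus strand) encodes p62, which binds ubiquitinated cargo and is itself degraded by autophagy. It had the highest counts of the 10 genes, at 393, 324 and 354 CPM in HKO, against 293, 259.7 and 261 CPM in WT. The groups did not overlap, and WT 1 came closest to HKO 2. The log2 fold change was 0.40 (SE 0.11, edgeR adjusted p = 0.0356), and the call was lost without HKO 1, HKO 3, WT 2 or WT 3 (edgeR adjusted p = 0.0999, 0.0922, 0.118 and 0.144). It was also lost under upper-quartile scaling and without the filter on low counts (edgeR adjusted p = 0.0546 and 0.0524).

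Bnip3 (ENSMUSG00000078566, chromosome 7, 138890836 to 138909519, minus strand), known as a target of hypoxia signalling and of FoxO factors and as a receptor for the removal of mitochondria, stood at 203, 139.9 and 187 CPM in HKO, against 31.7, 39.8 and 44.0 CPM in WT. The lowest HKO library held over 3 times the level of the highest WT library. The log2 fold change was 2.20 (SE 0.18, edgeR adjusted p = 0.00034), with a range of 2.06 to 2.34 over the 13 alternatives. Its raw counts were 3781, 2406 and 4099 in HKO and 570, 709 and 721 in WT.

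The tested genes with the profile most like that of Bnip3 over the 6 libraries were Slc6a9, Gys2 and Asl. Their log2 CPM, centred on each gene's mean, differed from that of Bnip3 by a root mean square of 0.12, 0.14 and 0.15. Slc6a9, a glycine transporter gene, averaged 49.4 ± 6.37 CPM in HKO, against 11.2 ± 1.599 CPM in WT (SD over 3 libraries). Gys2, the liver glycogen synthase gene, averaged 259.5 ± 37.7 CPM in HKO and 64.0 ± 13.1 CPM in WT. Asl, a urea cycle enzyme gene, averaged 593 ± 132 CPM in HKO and 154 ± 22.5 CPM in WT.

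Promoter sequences of 3 genes are shown because Bnip3 and Gabarapl1 were called with an adjusted p at or under 0.00147 and Gabarap, the closest relative of Gabarapl1, was not. Each runs 5′ to 3′ on the strand of its gene, from 250 bases before to 50 bases after the RefSeq start (GRCm38.p6), and capitals mark matches to the motifs named next. Bnip3 is chr7:138909457-138909756 (minus strand), Gabarapl1 chr6:129532942-129533241 (plus strand) and Gabarap chr11:69991120-69991419 (plus strand). The RefSeq start of Gabarap lies 227 bases inside the deposited gene, so most of its window, with the marked match, lies within that gene.
Bnip3: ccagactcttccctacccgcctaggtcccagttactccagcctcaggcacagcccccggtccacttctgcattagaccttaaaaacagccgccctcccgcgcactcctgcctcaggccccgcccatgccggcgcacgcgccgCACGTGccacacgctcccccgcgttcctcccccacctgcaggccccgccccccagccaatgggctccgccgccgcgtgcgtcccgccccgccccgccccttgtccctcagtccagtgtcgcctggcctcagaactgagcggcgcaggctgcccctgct
Gabarapl1: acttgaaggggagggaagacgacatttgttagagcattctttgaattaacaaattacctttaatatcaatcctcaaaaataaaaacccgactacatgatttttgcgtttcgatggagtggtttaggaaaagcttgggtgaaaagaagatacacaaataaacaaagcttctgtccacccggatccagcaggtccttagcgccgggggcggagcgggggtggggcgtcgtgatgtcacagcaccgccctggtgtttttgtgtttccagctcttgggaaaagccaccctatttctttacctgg
Gabarap: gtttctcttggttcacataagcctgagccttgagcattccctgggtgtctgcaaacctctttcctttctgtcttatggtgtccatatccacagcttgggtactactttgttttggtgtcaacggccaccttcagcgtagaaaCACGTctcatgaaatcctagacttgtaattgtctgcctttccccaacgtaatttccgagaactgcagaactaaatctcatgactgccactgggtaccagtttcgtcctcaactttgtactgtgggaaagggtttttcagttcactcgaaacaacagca

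Promoters of 8 of the 10 genes were matched, those of Ulk1, Wipi1, Map1lc3b, Gabarap, Gabarapl1, Gabarapl2, Sqstm1 and Bnip3. The RefSeq start of Wipi1 lies 578 bases inside the deposited gene, so its whole window lies within that gene. Those of the others besides Gabarap lie within 77 bases of the deposited start. They were searched on both strands for 4 short motifs. CACGTG, the core bound by TFEB and TFE3 among many E-box factors, was found in Bnip3, with its first base 108 bases before the start, and in none of the other 7, where 7.15% of all 32851 promoters of the same length hold it. ACGTG, the core of hypoxia response elements, which CACGTG contains on both strands, was found in Bnip3, Gabarap and Gabarapl2, where 19.6% of all promoters hold it. TGTTTAC, a forkhead core, was found in none of the 8, where 3.65% of all promoters hold it. Only this exact run of letters was searched, and variants of it were not. TGACNNNGC, the antioxidant response core, was found in Map1lc3b, where 12.4% of all promoters hold it. The called genes Gabarapl1, Ulk1 and Sqstm1 thus hold none of the 4 motifs as written in this window. A match, or the lack of one, is a description of letters only.

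Related genes were compared within each library by the log2 ratio of their counts. Such ratios do not depend on library scaling, and the 5 pairs were chosen after their values were seen, so they are given with no test. Gabarapl1 over Gabarap stood at -0.08, -0.06 and -0.04 on the log2 scale in HKO 1, 2 and 3, against -0.67, -0.67 and -0.69 in WT 1, 2 and 3. Reads of Gabarapl1 were thus close to those of Gabarap in every HKO library and clearly fewer in every WT library. Gabarapl1 over Gabarapl2 averaged 2.19 ± 0.03 in HKO and 1.57 ± 0.12 in WT (log2, SD, n = 3 each).

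Bnip3 over Bnip3l, its closest relative and likewise a mitophagy receptor gene, averaged 1.77 ± 0.14 in HKO and 0.03 ± 0.15 in WT (log2, SD, n = 3 each). Bnip3l was itself called higher in HKO (log2 fold change 0.46, edgeR adjusted p = 0.0231). Ulk1 over Ulk2, the related kinase, averaged 0.58 ± 0.04 in HKO and -0.33 ± 0.07 in WT. In both pairs the sign or size of the ratio separated all HKO from all WT libraries. Map1lc3a over Map1lc3b averaged -1.17 ± 0.62 in HKO and -1.64 ± 0.67 in WT, and these groups overlapped.

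**Figure D3:**
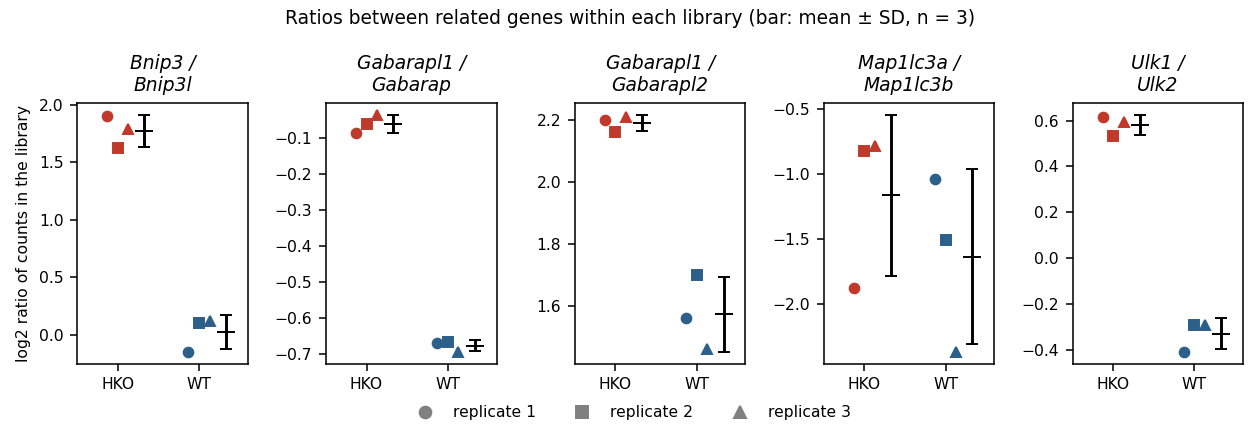
Log2 ratio of the counts of 2 related genes within each library (y axis, a separate range per panel) in HKO and WT (x axis). Points are libraries and bars are mean ± SD. All HKO points lie above all WT points in 4 of the 5 panels, and those of Map1lc3a over Map1lc3b overlap. The pairs were chosen after their values were seen, each with a called gene on top, and other pairs of genes were not counted.

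Levels of different genes were set side by side only per length, by the deposited FPKM (mean ± SD, n = 3 each), which are not TMM-scaled. The gene lengths behind these FPKM are in doubt, as given below, and so is the order of the genes. In HKO, Gabarap (59.7 ± 9.53 FPKM), Gabarapl1 (59.6 ± 8.94), Bnip3 (56.3 ± 13.1) and Sqstm1 (51.0 ± 7.24) led and did not differ beyond their spread. In WT, Gabarap led with 50.2 ± 1.42 FPKM, followed by Sqstm1 with 38.8 ± 4.69 and Gabarapl1 with 32.8 ± 0.83, and Bnip3 lay far lower at 12.1 ± 1.55, close to Gabarapl2 at 11.9 ± 1.21. Gabarapl2 held 14.1 ± 1.92 FPKM in HKO.

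The lower genes were Map1lc3a (8.91 ± 1.995 FPKM in HKO and 4.08 ± 0.20 in WT), Ulk1 (6.41 ± 1.12 in HKO and 4.46 ± 0.41 in WT), Map1lc3b (5.44 ± 3.76 in HKO and 3.27 ± 1.602 in WT), Becn1 (3.74 ± 0.73 in HKO and 3.50 ± 0.34 in WT) and Wipi1 (3.07 ± 0.38 in HKO and 3.02 ± 0.01 in WT). Neighbours in this lower order overlapped in HKO. In WT, Gabarap, Sqstm1 and Gabarapl1 lay apart from each other and above the rest. The lengths implied by the FPKM and the library count totals exceed even the span of the deposited gene for Map1lc3a (2531 bases) and Map1lc3b (10574 bases). Those of Becn1, Sqstm1, Gabarapl1 and Bnip3 exceed all their GENCODE M21 exons joined. They may thus not be true gene lengths, and the order by FPKM is uncertain. The implied lengths were 1.41 (Wipi1) to 4.02 (Map1lc3b) times the longest coding transcript in GENCODE M21. With counts per kilobase of that coding transcript, Map1lc3b came to 21.6 ± 14.4 CPM per kb in HKO and 13.2 ± 6.72 in WT, above Map1lc3a in both groups (20.2 ± 3.85 in HKO and 9.28 ± 0.23 in WT), and the same 5 genes led in both groups as by FPKM.

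Beyond the 10 genes, 83 further autophagy genes were read from the same fit. Together with the 10 they form 9 lists by role, of which the ATG8 family list holds no further gene. Of the 82 further genes tested, 25 rose in HKO and 1 fell. That is 30.5% higher, beside 12.1% of all genes, and the median log2 fold change was 0.25. The lists were chosen with earlier results of these data known, so these shares describe the lists and test nothing. Atg9b alone was too low to test, at 0.322 to 0.465 CPM in HKO and 0.111 to 0.449 CPM in WT. The 25 fell to 12 without WT 3, 14 without HKO 3 and 16 without WT 2. Higher calls over all genes fell likewise, from 1516 to 722, 969 and 952 in these fits. The 1 lower gene became 3 without WT 1, 2 without HKO 2 and none without WT 2 or WT 3. Lower calls over all genes went from 1401 to 1053 without WT 1, 1546 without HKO 2, 894 without WT 2 and 682 without WT 3.

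**Figure D4:**
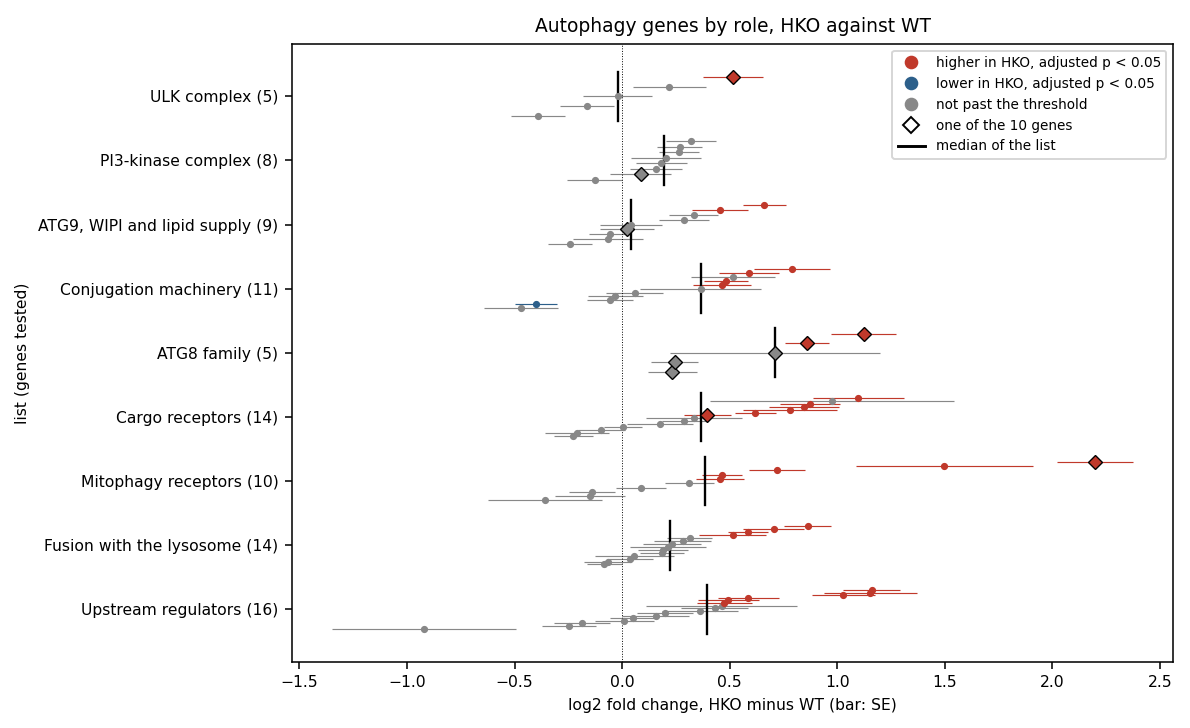
Log2 fold change, HKO minus WT, with its SE (x axis) for each tested autophagy gene, by role (y axis, with the number tested). Diamonds are the 10 genes, colour marks the call, and black lines are list medians. Bnip3 lies furthest right at 2.20, and no gene of the PI3-kinase complex is called.

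In the ULK complex list, Ulk1 was the 1 gene of 5 called by edgeR, beside 12.1% called higher over all genes. Ulk2 averaged 41.5 ± 5.11 CPM in HKO and 54.4 ± 5.53 CPM in WT (log2 fold change -0.39, edgeR adjusted p = 0.0559). It was called lower by DESeq2 (adjusted p = 0.0457), and by edgeR under upper-quartile scaling (adjusted p = 0.0336) and without HKO 3 (-0.50, adjusted p = 0.0395). In the PI3-kinase complex list, which holds Becn1, none of 8 was called by edgeR, DESeq2 or limma-voom, beside 23.2% of all genes called by edgeR. By edgeR 3 were higher at an unadjusted p below 0.05, but the share of all genes at that threshold was not counted. Uvrag, a Beclin 1 partner gene, averaged 30.6 ± 1.53 CPM in HKO and 25.5 ± 0.61 CPM in WT (log2 fold change 0.27, edgeR adjusted p = 0.0789). In the list of ATG9, WIPI and lipid supply genes, 2 of 9 rose, the lipid transfer genes Atg2a (log2 fold change 0.66, edgeR adjusted p = 0.00366) and Atg2b (0.46). Vmp1, a gene of the endoplasmic reticulum membrane, had -0.24 and did not pass. The call of Atg2b was lost without HKO 3, WT 1, WT 2 or WT 3 (edgeR adjusted p = 0.0985, 0.110, 0.0848 and 0.108).

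Of 11 genes of the machinery that joins ATG8 proteins to lipid, 4 rose and 1 fell (median log2 fold change 0.36). Among all genes tested 12.1% were called higher and 11.2% lower. On the log2 scale Atg7, the activating enzyme gene, rose by 0.79, the protease gene Atg4d by 0.59 and the conjugating enzyme gene Atg3 by 0.48. Atg12, a ubiquitin-like protein gene, fell by 0.40 on the log2 scale to 24.3 ± 0.99 CPM in HKO, against 32.1 ± 1.94 CPM in WT. Its partner Atg5 did not pass, with 0.06. Atg7 was lost without HKO 3 or WT 3 (edgeR adjusted p = 0.0576 and 0.0658), Atg3 without WT 3 (0.0661), Atg4d without HKO 1, HKO 3, WT 2 or WT 3 (0.0642, 0.0690, 0.0736 and 0.0801) and Atg12 without HKO 3, WT 2 or WT 3 (0.0703, 0.0875 and 0.0629). In these fits the log2 fold change was 0.67 and 0.80 for Atg7, 0.47 for Atg3, 0.50, 0.53, 0.56 and 0.58 for Atg4d, and -0.38, -0.35 and -0.43 for Atg12. Calls over all genes also fell in number there, as to 722 higher without WT 3, against 1516 with all libraries.

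Of 14 cargo receptor genes, 6 rose, Sqstm1 among them (median log2 fold change 0.37), beside 12.1% of all genes tested. Fam134b, the symbol in the table for Retreg1, a receptor for the endoplasmic reticulum, rose by 1.10 on the log2 scale, to 118 ± 14.6 CPM in HKO, against 55.3 ± 15.5 CPM in WT (edgeR adjusted p = 0.00953). Calcoco1 and Tex264, which also serve turnover of the endoplasmic reticulum, rose by 0.87 and 0.85 on the same scale. Nbr1, a relative of Sqstm1 that binds ubiquitinated cargo, averaged 200 ± 21.9 CPM in HKO and 214 ± 11.8 CPM in WT and did not pass.

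Of 10 mitophagy genes, 5 rose (median log2 fold change 0.38), beside 12.1% of all genes tested. Beside Bnip3, the kinase gene Pink1 rose by 0.72 on the log2 scale, to 135 ± 16.3 CPM in HKO, against 82.1 ± 10.6 CPM in WT (edgeR adjusted p = 0.00761). Phb2, a prohibitin gene of the inner mitochondrial membrane, rose by 0.47 (log2) and was lost without WT 3 (edgeR adjusted p = 0.0618). Fkbp8, an outer membrane receptor gene, had -0.14 and did not pass.

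Of 14 genes for fusion with the lysosome, 4 rose (median log2 fold change 0.22), beside 12.1% of all genes tested. The small GTPase gene Rab7 rose by 0.86 on the log2 scale, to 185 ± 22.9 CPM in HKO, against 102 ± 1.19 CPM in WT (edgeR adjusted p = 0.00185), the SNARE gene Vamp8 by 0.70 and the tethering complex gene Vps11 by 0.58. Ykt6, a second SNARE gene, had -0.08 and did not pass.

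Of 16 upstream regulator genes, 6 rose (median log2 fold change 0.40), beside 12.1% of all genes tested. The list mixes genes that promote autophagy with genes that restrain it, so its count and median have no single meaning. Mtor, whose kinase restrains autophagy, was among the 6 (log2 fold change 0.49, edgeR adjusted p = 0.0406), as were Foxo3 (0.59, 0.0222) and Tsc2 (0.48, 0.0333). Trp53inp1, whose protein binds ATG8 proteins, rose by 1.16 on the log2 scale, to 119 ± 14.9 CPM in HKO, against 53.0 ± 6.57 CPM in WT (edgeR adjusted p = 0.00125). Tfeb, a transcription factor gene for lysosome and autophagy genes, rose by 1.15 on the log2 scale, to 6.27 ± 0.77 CPM in HKO, against 2.81 ± 0.56 CPM in WT (edgeR adjusted p = 0.00858). Foxo1, a transcription factor gene that insulin signalling restrains at the protein level, rose by 1.03 on the log2 scale, to 61.8 ± 5.86 CPM in HKO, against 30.3 ± 5.16 CPM in WT (edgeR adjusted p = 0.00289). Trp53inp2, a relative of Trp53inp1, averaged 228 ± 19.03 CPM in HKO and 204 ± 41.1 CPM in WT and did not pass.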

How the data were processed

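Per the file headers, each gene has a deposited read count and a deposited FPKM value (fragments scaled to gene length and library size) in each library, all in 1 table. HISAT2 2.0.4 and StringTie 1.3.0, and builds mm10 and GRCm38.p4, are named in the submitters' processing notes, without roles or settings. Whether counting used strand is not stated there.

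The whole table of deposited counts was fitted with edgeR 4.0.16 under R 4.3.3 (filterByExpr, 12556 of 34745 genes kept, TMM scaling, quasi-likelihood F-test of HKO against WT, Benjamini-Hochberg adjustment over all genes tested). Calls are at adjusted p below 0.05, and each SE is the size of the log2 fold change over root F. Levels are TMM-scaled CPM. Counts limit precision only for low genes, at library totals of 16659778 to 21168233. Alternatives were RLE and upper-quartile scaling, mitochondrial genes left out, no filter, DESeq2 1.42.0, limma-voom 3.58.1, a replicate block and each library left out. The fits were tested on simulated data.

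The members and lists were chosen with earlier results of these data known. All 10 genes were named. From each list the called genes with the largest changes, at most 3 per direction, and the uncalled gene with the highest mean were named. Outside this rule Bnip3l was named in a ratio pair, and Mtor, Foxo3 and Tsc2 among the upstream regulators. One gene that this rule names, and one marker, are not reported here. The alike genes are the 3 tested genes nearest to the called member with the smallest adjusted p. The coordinates of the 10 genes are those of the table and equal GENCODE M21. On the opposite strand, exons of Becn1 share 3104 of 7065 bases with Cntd1 (at or under 0.618 CPM in every library), those of Sqstm1 share 580 with Mrnip (1.28 to 2.42 CPM in HKO and 5.98 to 6.50 CPM in WT), those of Gabarapl1 share 570 with 1700101I11Rik (at or under 0.269 CPM), those of Map1lc3b share 58 with Zcchc14 (at most 24.7 CPM in HKO and 20.7 CPM in WT) and those of Bnip3 share 504 with Gm45507 (not analysed here). Exons of Atg4d, Phb2, Fkbp8, Uvrag, Atg2b, Foxo1 and Rab7 overlap opposite-strand genes too, and those of Vmp1, Pink1 and Phb2 overlap small RNA genes on the same strand, so all these values are uncertain to that extent.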

Additional observations from a re-analysis of the deposited data

How the results depend on the processing

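Bnip3, Map1lc3a and Gabarapl1 were called higher in all 13 alternatives, Ulk1 in 9 and Sqstm1 in 6, and Gabarap, Gabarapl2, Map1lc3b, Becn1 and Wipi1 in none. With a library left out, 3 to 5 of the 10 genes and 12 to 26 of the wider genes were called higher, and 0 to 3 wider genes lower, while 722 to 1589 of all genes were called higher and 682 to 1546 lower, with shifts over 1.5 times without HKO 3, WT 2 or WT 3 (969, 952 and 722 higher). The 1 wider gene called lower became 2 with DESeq2 and with upper-quartile scaling. The replicate numbers did not pair the libraries (correlations of deviations from the group means -0.002, 0.002 and 0.07 for numbers 1, 2 and 3, and 2 of the 6 libraries, HKO 3 and WT 3, correlated best with their own number). With the replicate block 1245 genes were higher and 1115 lower, 4 of the 10 genes were higher with Sqstm1 no longer called (adjusted p = 0.0598), 22 wider genes were higher and 0 were lower, since Atg12 came to an adjusted p of 0.0555. Signs turned in results that had not passed: Wipi1 came to -0.020 (log2 fold change) under upper-quartile scaling and to -0.056 to 0.086 with a library left out, Map1lc3b to -0.0073 to 1.19, Becn1 to -0.014 to 0.20, Atg5 to -0.071 to 0.16 and Trp53inp2 to -0.010 to 0.27. The cause was not tested. The other changes of call were losses or gains without a change of sign.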

Other observations

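Ncoa4, the receptor gene for the turnover of ferritin, was chosen here after its values were seen. It stood at 45.8, 40.2 and 53.0 CPM in HKO 1, 2 and 3, against 4.78, 34.4 and 31.7 CPM in WT 1, 2 and 3. WT 1 lay far below every other library, and the gene did not pass the test (log2 fold change 0.98, SE 0.57, edgeR adjusted p = 0.245). Depp1, listed in the table as 8430408G22Rik and known as a FoxO target, was also chosen after its values were seen and had 12.2, 24.3 and 12.1 CPM in HKO, against 13.7, 37.97 and 40.3 CPM in WT. Its log2 fold change of -0.92 (SE 0.43, edgeR adjusted p = 0.154) was the most negative of the 92 autophagy genes tested, and WT 1 lay among the HKO values.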
